A study of Mus musculus with 8 samples.

Results

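The genes described here are 30 interferon-stimulated genes, whose RNA was sequenced from naive CD8 T cells of Brca1 wild type (WT) and Brca1 heterozygous (Het) mice. They were chosen by name, leaving out the guanylate-binding protein (GBP) and immunity-related (IRG) GTPases, and all 30 were found among the 22609 genes of the deposited table. Each of the 30 averaged 10 or more, the condition for testing, which 12048 genes met. The WT and Het groups hold 4 libraries each and share the strain C57BL/6, the age of 3 months and the source, CD8 T cells that have not met antigen, isolated directly from spleen. Libraries are named by genotype and title number: WT 45, 54, 57 and 65, and Het 31, 53, 56 and 139. How the Brca1 allele was made, how the cells were isolated, and whether each library came from its own mouse are not given in the labels, so a p-value here weighs a difference only against variation among these libraries, which may be technical.

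Interferons are secreted proteins with which infected or alarmed cells warn their neighbours. Type I interferons bind the receptor of Ifnar1 and Ifnar2, the kinases Jak1 and Tyk2 phosphorylate STAT factors, and these join Irf9 in a complex called ISGF3 that binds interferon-stimulated response elements (ISRE) in promoters. The genes switched on there include sensors of viral RNA, inhibitors of translation and viral assembly, and the factors of the pathway itself. Naive T cells carry out a low level of this signalling without infection, and interferon also sets how strongly they later respond to antigen.

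ISRE sequences near the starts of these genes are shown because they are the shared element through which ISGF3 acts. The rule that chose the genes used names and not sequences. The names are those of genes known to respond to interferon, so a high share of cores is no independent result. Promoters, 250 bases before to 50 after a transcription start, were taken from RefSeq (build GRCm38.p6) and matched 22 of the 30 genes by symbol. They were searched on both strands for the ISRE core, GAAA and GAAA with any 2 bases between, whose reverse complement is TTTC and TTTC spaced alike. In the following stretches, read 5′ to 3′ on the gene's own strand, capitals mark the core, and overlapping cores run together.
Isg15, chr4:156200863-156200908, minus strand: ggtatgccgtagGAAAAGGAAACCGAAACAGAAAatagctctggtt
Ifit1, chr19:34640773-34640825, plus strand: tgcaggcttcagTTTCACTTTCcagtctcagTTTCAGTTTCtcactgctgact
Ifit3, chr19:34583361-34583428, plus strand: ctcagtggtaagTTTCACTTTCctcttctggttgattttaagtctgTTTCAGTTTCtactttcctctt
Oas1a, chr5:120907518-120907557, minus strand: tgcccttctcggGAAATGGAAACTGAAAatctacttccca
Oas3, chr5:120777713-120777746, minus strand: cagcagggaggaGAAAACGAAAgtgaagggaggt
Rsad2, chr12:26456551-26456584, minus strand: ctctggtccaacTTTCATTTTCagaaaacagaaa
Bst2, chr8:71537575-71537614, minus strand: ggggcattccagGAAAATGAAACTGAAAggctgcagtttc
Stat2, chr10:128270264-128270297, plus strand: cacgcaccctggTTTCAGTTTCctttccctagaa
Trim30a, chr7:104465208-104465241, minus strand: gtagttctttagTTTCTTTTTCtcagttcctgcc

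The core was present in 12 of the 22 genes (54.5%) and in 1079 of all 27025 genes with a promoter entry (3.99%). Besides the 9 genes printed above, Ifih1, Ddx58 and Eif2ak2 held it after their start. Isg15 had 3 overlapping cores beginning at base -78, and Ifit1 and Ifit3 each had 2 separate cores. The GAS motif TTCNNNGAA, bound by STAT dimers, was present in 6 of the 22 genes (27.3%) and in 9.55% of all genes. In Bst2 a GAS match at base -136 overlapped the ISRE core at -130. A match is a description of the letters and not a tested binding site, and Irf7, Irf9, Ifi44, Ifit2 and the other genes without an ISRE core lack only its letters in this window.

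**Figure D1:**
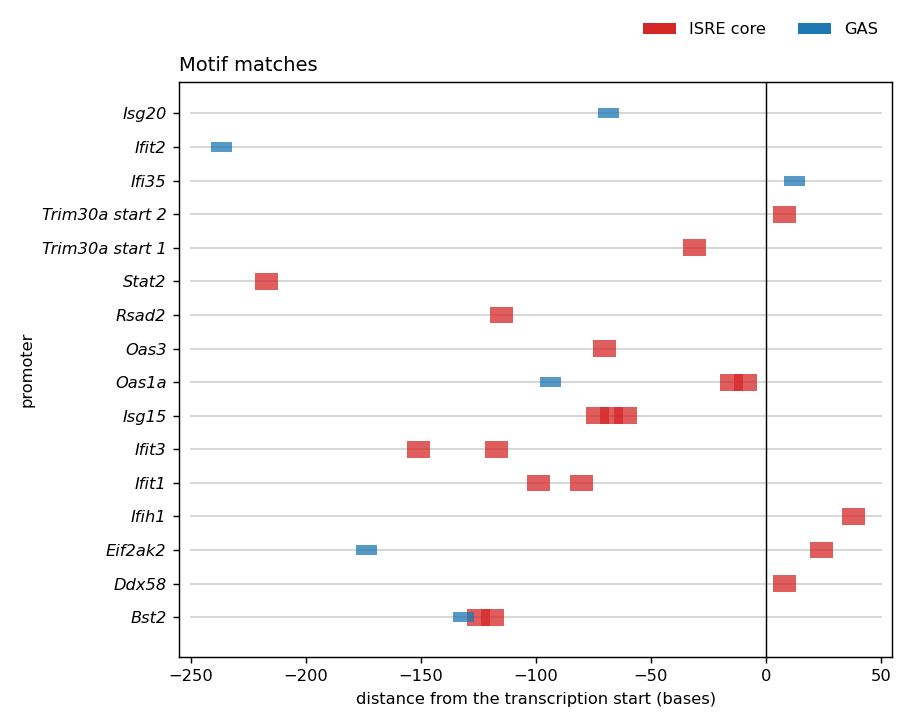
Positions of ISRE core matches (red) and GAS matches (blue) in the promoters that hold at least 1 match, from 250 bases before to 50 bases after the transcription start (vertical line). Isg15, Ifit1, Ifit3, Oas1a and Bst2 hold more than 1 ISRE core, and Trim30a is drawn for both of its annotated starts.

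No interferon-stimulated gene passed the test between genotypes, and 29 of the 30 had their highest value in 1 library, Het 139. This library was named when the genes were chosen, with earlier results of these data known, so its count is a description. Over all 12048 tested genes, limma called 62 (0.515%) at an adjusted p under 0.05, all lower in Het. At an unadjusted p under 0.05 limma gave 2 of the 30, Trim30a and Oas1a, both higher in Het, against 8.19% of all tested genes in either direction and 3.79% higher in Het, and no other tool was run. The difference was above 0 in 28 of the 30, against 52.0% of all tested genes, with a median log2 difference of 0.30 beside 0.01 over all tested genes. Without Het 139 it was above 0 in 23 of the 30 (52.2% of all tested genes), the median was 0.10, and limma gave 0 of the 30 both at an unadjusted p under 0.05 (6.06% of all tested genes) and at an adjusted p under 0.05 (0.249%). Log2 differences are Het minus WT on the log2(value + 1) scale, from limma with Benjamini-Hochberg adjustment over all tested genes, and levels are normalized read counts.

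The mean log2 level of the 30 genes was 10.15, 9.81, 10.50 and 9.79 in WT 45, 54, 57 and 65. Het 31, 53, 56 and 139 had 10.11, 10.19, 10.21 and 11.22. Het 139 was thus above every WT library, and the other Het libraries lay inside the WT range and close together. Het 139 held the highest of the 8 values in 29 genes, against 16.5% of all tested genes. The exception was Parp14, which was highest in Het 56. Het 139 exceeded the median of the other 7 libraries by at least 2-fold in 16 of the 30 (3.46% of all tested genes) and by at least 1.5-fold in 22 (8.26%).

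The WT libraries also differed among themselves, and most of the genes placed them in a like order. WT 57 was the highest WT library in 25 of the 30 genes, against 19.5% of all tested genes. WT 54 was the lowest in 16 (26.3% of all tested genes) and WT 65 in 14 (28.7%). WT 54 and 65 both lay below WT 45 and 57 in 24 of the 30, against 12.8% of all tested genes. Of the 90 values of Het 31, 53 and 56, 65 lay within the WT range of their gene, 19 above it and 6 below it.

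**Figure D2:**
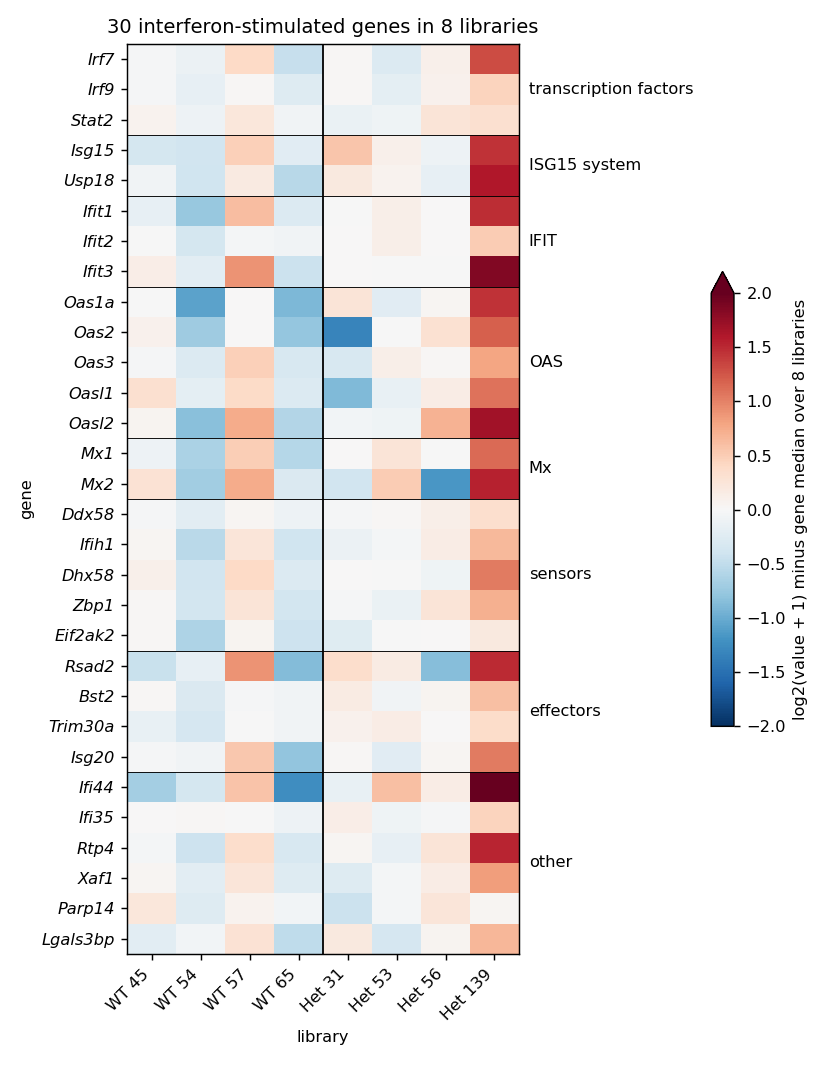
Level of each of the 30 genes (rows, grouped by role) in the 8 libraries (columns), as log2(value + 1) minus the gene's median over the libraries, with red above and blue below the median and Ifi44 in Het 139 beyond the end of the scale at 3.37. Het 139 is above the median in all 30 genes, and WT 65 is below it in all 30.

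The factors of the pathway differed in how far Het 139 stood out. Irf7, the factor that amplifies interferon production and is itself induced, was at 4223.7, 3947.2, 5644 and 3135 in WT 45, 54, 57 and 65, while it was at 4385.4, 3568.5, 4596.9 and 10686 in Het 31, 53, 56 and 139. Only Het 139 lay outside the WT range, at 2.53 times the median of the other 7 libraries. WT libraries averaged 4237 ± 1045 and Het libraries 5809 ± 3281 (± SD, n = 4 per genotype), which gave a log2 difference of 0.35 (SE 0.30, limma adjusted p = 0.758), and 0.01 (SE 0.18) without Het 139. Irf9, the DNA-binding part of ISGF3, was at 4517.6, 4092, 4630.5 and 3807.2 in the WT and at 4619.8, 3991.8, 4823.8 and 6216.8 in the Het libraries, in the same order. Het 56 and 139 were above all WT values of Irf9, whose log2 difference was 0.19 (SE 0.13, limma adjusted p = 0.706). Stat2, a subunit of ISGF3, was at 2923.8, 2611.1, 3262.7 and 2668.9 in the WT and at 2557.4, 2636, 3355.5 and 3496.2 in the Het libraries. Its groups overlapped widely, with a log2 difference of 0.06 (SE 0.12, limma adjusted p = 0.896).

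Isg15, a ubiquitin-like protein joined to other proteins during the response, and Usp18, the protease that removes it and also blocks the receptor, were both highest in Het 139. Isg15 was at 360.6, 353.4, 640 and 393.5 in WT 45, 54, 57 and 65, while it was at 673.9, 493.8, 426.5 and 1249.8 in Het 31, 53, 56 and 139. WT 57 was within the range of the Het libraries, and WT 45, 54 and 65 were below every Het value. The log2 difference of Isg15 was 0.62 (limma adjusted p = 0.652, SE 0.32, 95% interval -0.08 to 1.31), and 0.30 (SE 0.24) without Het 139. Usp18 was at 1046, 833.2, 1238.1 and 744.9 in the WT and at 1248.7, 1143.9, 975.2 and 3330.2 in the Het libraries. Het 139 had 2.97 times the mean Usp18 of the other 3 Het libraries, while Het 31 was just above the highest WT value. The log2 difference of Usp18 was 0.63 (SE 0.34, limma adjusted p = 0.653), and 0.24 (SE 0.18) without Het 139.

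The IFIT proteins bind viral RNA and block its translation. Ifit1, which recognises RNA without the cap methylation of the host, was at 946.6, 625.2, 1614 and 876.5 in WT 45, 54, 57 and 65, while it was at 1049.6, 1141.5, 1061.4 and 2945.1 in Het 31, 53, 56 and 139. Ifit3 was at 786.6, 624, 1339.2 and 531.5 in the WT and at 724.5, 713.9, 712.2 and 2600.6 in the Het libraries. In both genes Het 31, 53 and 56 lay within the WT range and Het 139 above every other library. The log2 difference of Ifit1 was 0.54 (SE 0.35, limma adjusted p = 0.694), and that of Ifit3 was 0.36 (SE 0.42, limma adjusted p = 0.809) with all libraries and -0.10 (SE 0.27) without Het 139. Ifit2, a family member that also promotes apoptosis, was at 2055.5, 1618.5, 1999.8 and 1971.4 in the WT and at 2068.2, 2246.1, 2083.4 and 2929.1 in the Het libraries. The groups of Ifit2 did not overlap, by a gap between WT 45 and Het 31 smaller than the spread within either genotype. Its log2 difference was 0.28 (limma adjusted p = 0.620, SE 0.13, 95% interval -0.01 to 0.56). Ifit3 has a near-identical neighbour, listed as I830012O16Rik, at 46.4 to 216.6 in WT against 112.1 to 545.5 in Het libraries, so reads may be split between the copies.

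The oligoadenylate synthetases sense long RNA and make the messenger that activates RNase L. Oas1a was at 244.4, 117.2, 247.9 and 131.6 in WT 45, 54, 57 and 65, while it was at 295.4, 211, 254.2 and 668.8 in Het 31, 53, 56 and 139. Het 31, 56 and 139 were above all WT libraries and Het 53 was not. WT libraries averaged 185 ± 70.6 and Het libraries 357 ± 210.5 (± SD, n = 4 per genotype), which gave a log2 difference of 0.87 (limma adjusted p = 0.590, SE 0.37, 95% interval 0.04 to 1.70), and 0.52 (SE 0.30) without Het 139. Oasl2, a family member that carries ubiquitin-like domains, was at 610.5, 330.5, 987 and 390.1 in the WT and at 566.3, 555.1, 953.7 and 1884.9 in the Het libraries. WT 57 was above 3 of the 4 Het libraries in Oasl2, whose log2 difference was 0.71 (SE 0.42, limma adjusted p = 0.663). Oas2 was at 1776.9, 1020.6, 1686.1 and 975.7 in the WT and at 668.6, 1657.2, 2068.2 and 3844.3 in the Het libraries. Het 31 thus had the lowest Oas2 of all libraries and Het 139 the highest, with a log2 difference of 0.39 (SE 0.44, limma adjusted p = 0.805). Oasl1, which limits the translation of Irf7, was likewise lowest in Het 31, at 350.4, and highest in Het 139, at 1377.8, against 532.6 to 842.3 in WT, with a log2 difference of -0.00 (SE 0.35, limma adjusted p = 0.998), and -0.35 (SE 0.26) without Het 139. Oas3 was at 1756.3 to 3056.7 in WT, at 1750.4 to 2374.4 in Het 31, 53 and 56, and at 3769.8 in Het 139 (log2 difference 0.19, SE 0.23, limma adjusted p = 0.826). Oas1a has a close copy, Oas1g, listed at 6.0 or less in every library.

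The Mx proteins are dynamin-like GTPases that trap viral particles, and in C57BL/6 mice both genes are known to be defective, so that their transcripts report the response without giving a working protein. Mx1 was at 372.4, 257.3, 561.7 and 268.3 in WT 45, 54, 57 and 65, while it was at 404.6, 479.9, 396.2 and 880.8 in Het 31, 53, 56 and 139. WT 57 was above Het 31, 53 and 56, and the log2 difference of Mx1 was 0.56 (SE 0.30, limma adjusted p = 0.653). Mx2 was at 99.5, 49.7, 136.8 and 65.9 in the WT and at 61.7, 116.1, 35.7 and 236.7 in the Het libraries. Mx2 was lowest in Het 56 and highest in Het 139, with a log2 difference of 0.11 (SE 0.54, limma adjusted p = 0.961), and -0.36 (SE 0.46) without Het 139.

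The nucleic acid sensors covered a narrower range. Ddx58, the RNA helicase RIG-I, was at 4715.2 to 5595.1 in WT against 5361.2 to 6912.1 in Het libraries, with 1.29 times the median of the other libraries in Het 139 (log2 difference 0.19, SE 0.10, limma adjusted p = 0.653). Ifih1, the helicase for long RNA duplexes, was at 697.7, 466.8, 806.6 and 516.8 in WT 45, 54, 57 and 65, while it was at 628, 661.2, 752.4 and 1066.3 in Het 31, 53, 56 and 139. Zbp1, a sensor of left-handed nucleic acid that triggers necroptosis, was at 4238.9, 3252.1, 5028.8 and 3229.3 in the WT and at 4128.8, 3813, 4980.9 and 6857.2 in the Het libraries. In both, all Het libraries but Het 139 lay within the WT range, and the log2 difference was 0.32 (limma adjusted p = 0.692 for Ifih1 and 0.682 for Zbp1). Dhx58, a regulator of these helicases without signalling domains, was at 923, 660.4, 1133.8 and 707.4 in the WT and at 862.7, 855.6, 807.3 and 1761.9 in the Het libraries. The Dhx58 values of Het 31, 53 and 56 were close together and Het 139 had 2.09 times their mean, and the log2 difference was 0.28 (SE 0.26) with and 0.01 (SE 0.18) without it. Eif2ak2, the kinase PKR that stops translation when it binds RNA duplexes, was at 607.2 to 961.6 in WT against 781.6 to 1064.2 in Het libraries (log2 difference 0.22, SE 0.17, limma adjusted p = 0.728). All 5 sensors had a log2 difference above 0 with Het 139 (0.19 to 0.32) and without it (0.01 to 0.16).

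Among the other antiviral effectors, Trim30a had the smallest unadjusted p of the 30 genes. Trim30a, which restrains inflammatory signalling, was at 4084.2, 3607, 4531.4 and 4331.4 in WT 45, 54, 57 and 65, while it was at 4796.8, 5028.8, 4555.3 and 5829.6 in Het 31, 53, 56 and 139. All Het values were above all WT values, with Het 56 and WT 57 nearly equal. WT libraries averaged 4138 ± 399 and Het libraries 5053 ± 553 (± SD, n = 4 per genotype), which gave a log2 difference of 0.29 (limma unadjusted p = 0.0195 and adjusted p = 0.489, SE 0.10, 95% interval 0.06 to 0.52). Without Het 139 it was 0.22 (SE 0.10, limma adjusted p = 0.815). A close copy of this gene, Trim30d, was at 670.4 to 851.5 in WT against 853.4 to 1342.4 in Het libraries. WT 45 and Het 31 were nearly equal in Trim30d, and reads may be split between the copies. Complete separation with Het above WT was found in Ifit2 and Trim30a, 2 of the 30, against 2.13% of all tested genes, and with Het below WT in 0 (2.86%). It was found in 7 without WT 57 (3.34% of all tested genes) and in 4 without Het 53 (4.11%). It was found in 2 without WT 45, 54 or 65 (2.91%, 3.39% and 5.24%) and in 2 without Het 31, 56 or 139 (2.86%, 6.56% and 3.19%). It was found in 0 (1.77%) when the libraries were rescaled by median-of-ratios size factors.

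Rsad2, the radical enzyme viperin that makes a chain-terminating nucleotide, was at 226.1, 273.2, 569.7 and 167.9 in WT 45, 54, 57 and 65, while it was at 391.2, 344.1, 169.1 and 861.6 in Het 31, 53, 56 and 139. Isg20, an RNA exonuclease, was at 532.5, 511.2, 781.8 and 313 in the WT and at 545.9, 462.9, 555.7 and 1108.2 in the Het libraries. WT 57 exceeded 3 of the 4 Het libraries in both genes, and the log2 differences were 0.43 (SE 0.47, limma adjusted p = 0.803) for Rsad2 and 0.31 (SE 0.31, limma adjusted p = 0.782) for Isg20. Bst2, or tetherin, which holds budding virus at the cell surface and also marks plasmacytoid dendritic cells in mice, was at 1832.1 to 2258.7 in WT, at 2122.8 to 2493.9 in Het 31, 53 and 56, and at 3383.6 in Het 139 (log2 difference 0.28, SE 0.14, limma adjusted p = 0.652).

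Ifi44, a protein of the response with an incompletely known role, had the largest difference of the 30 genes. It was at 44.6, 56.2, 107.4 and 29.8 in WT 45, 54, 57 and 65, while it was at 64.9, 109.6, 79.1 and 749.6 in Het 31, 53, 56 and 139. Het 139 had 11.6 times the median of the other 7 libraries, and Het 53 was just above the highest WT library. WT libraries averaged 59.5 ± 33.7 and Het libraries 251 ± 333 (± SD, n = 4 per genotype), which gave a log2 difference of 1.41 (limma adjusted p = 0.646, SE 0.70, 95% interval -0.13 to 2.96), and 0.62 (SE 0.43) without Het 139. Rtp4, a chaperone of membrane receptors that also binds viral RNA, was at 1183.1, 913.9, 1540.8 and 974.2 in the WT and at 1245.4, 1084.1, 1451.9 and 3475.9 in the Het libraries. Het 139 was alone above the WT range of Rtp4, and the log2 difference was 0.52 (SE 0.32, limma adjusted p = 0.682). Lgals3bp, a secreted galectin-binding glycoprotein, was at 4775.9, 5336.4, 6783.9 and 3922.1 in the WT and at 6357.4, 4400.8, 5774.6 and 8793.1 in the Het libraries, with a log2 difference of 0.27 (SE 0.21, limma adjusted p = 0.742).

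Ifi35, Xaf1 and Parp14 complete the list. Ifi35, a regulator of innate signalling, was at 2437.7 to 2668.9 in WT, at 2465.7 to 2859.6 in Het 31, 53 and 56, and at 3561.8 in Het 139 (log2 difference 0.14, SE 0.12, limma adjusted p = 0.756). Xaf1, which promotes apoptosis, was at 793.1 to 1121.6 in WT, at 794.2 to 1044 in Het 31, 53 and 56, and at 1696 in Het 139 (log2 difference 0.22, SE 0.22, limma adjusted p = 0.778). Parp14, an ADP-ribosyltransferase, was at 8637.3, 6160.9, 7790.9 and 7096.4 in WT 45, 54, 57 and 65, while it was at 5494.7, 7179.8, 8779.1 and 7613 in Het 31, 53, 56 and 139. Het 139 was in the middle of these Parp14 values, and the log2 difference was -0.04 (SE 0.15, limma adjusted p = 0.947).

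**Figure D3:**
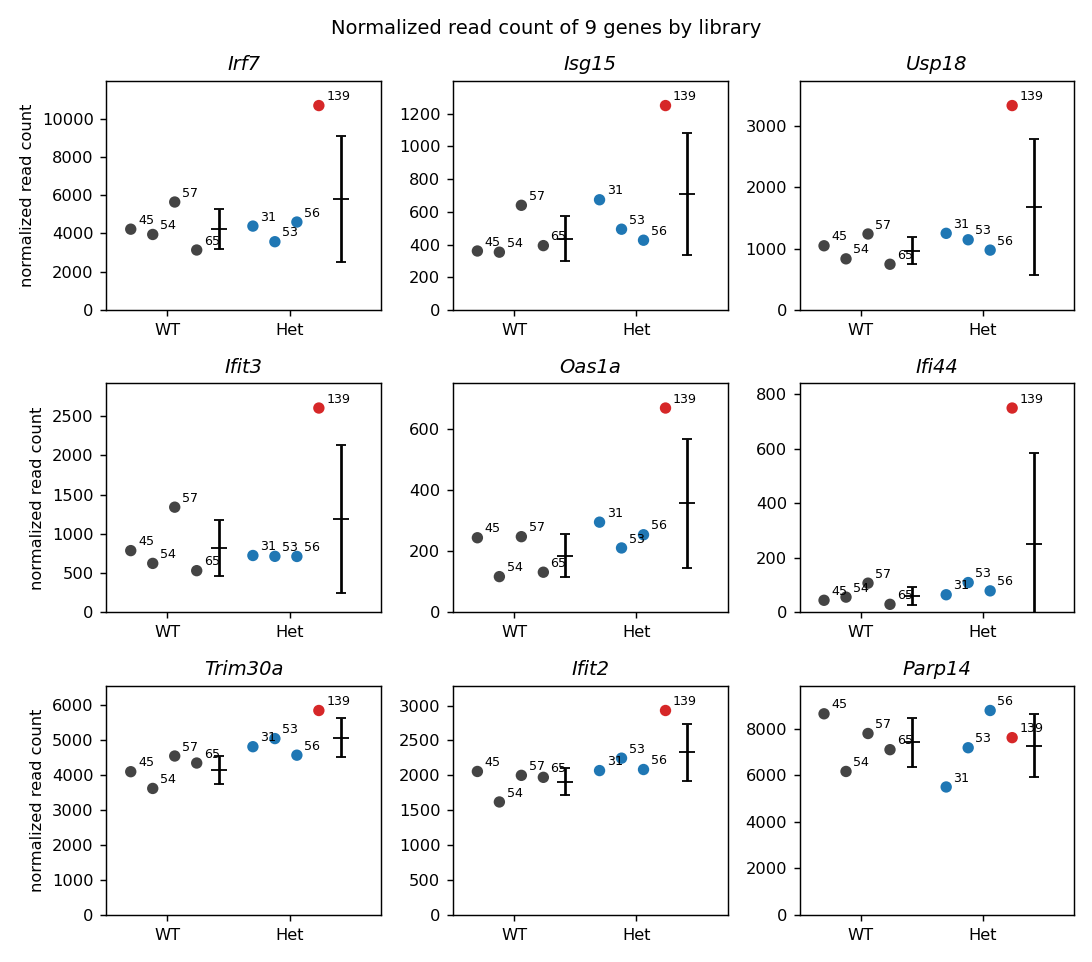
Normalized read count of 9 genes in each WT library (grey) and Het library (blue, Het 139 red), with the library numbers, and the mean ± SD of 4 libraries beside each group (the lower bar of Ifi44 in Het is clipped at 0). Het 139 is far above the rest in Irf7, Isg15, Usp18, Ifit3, Oas1a and Ifi44, the genotypes do not overlap in Trim30a and Ifit2, and Parp14 shows neither.

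The 30 genes fell along a gradient from those that barely differed between libraries to those that differed several-fold. The highest WT library was less than 1.5 times the lowest in 9 genes and at least 2 times in 9 others. Of the 16 genes with at least 2-fold more in Het 139 than the median of the others, 9 were those with at least 2-fold among WT libraries. Of the 8 genes with less than 1.5-fold in Het 139 (Ifit2, Irf9, Stat2, Ifi35, Trim30a, Ddx58, Parp14 and Eif2ak2), 7 had less than 1.5-fold among WT libraries. These counts were not made over all tested genes, and whether they follow the level of a gene was not tested. The median log2 excess of Het 139 over the other 7 was 0.75 in the 12 genes with an ISRE core, 0.97 in the 10 genes with a promoter but no core, and 1.18 in the 8 without a promoter entry.

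**Figure D4:**
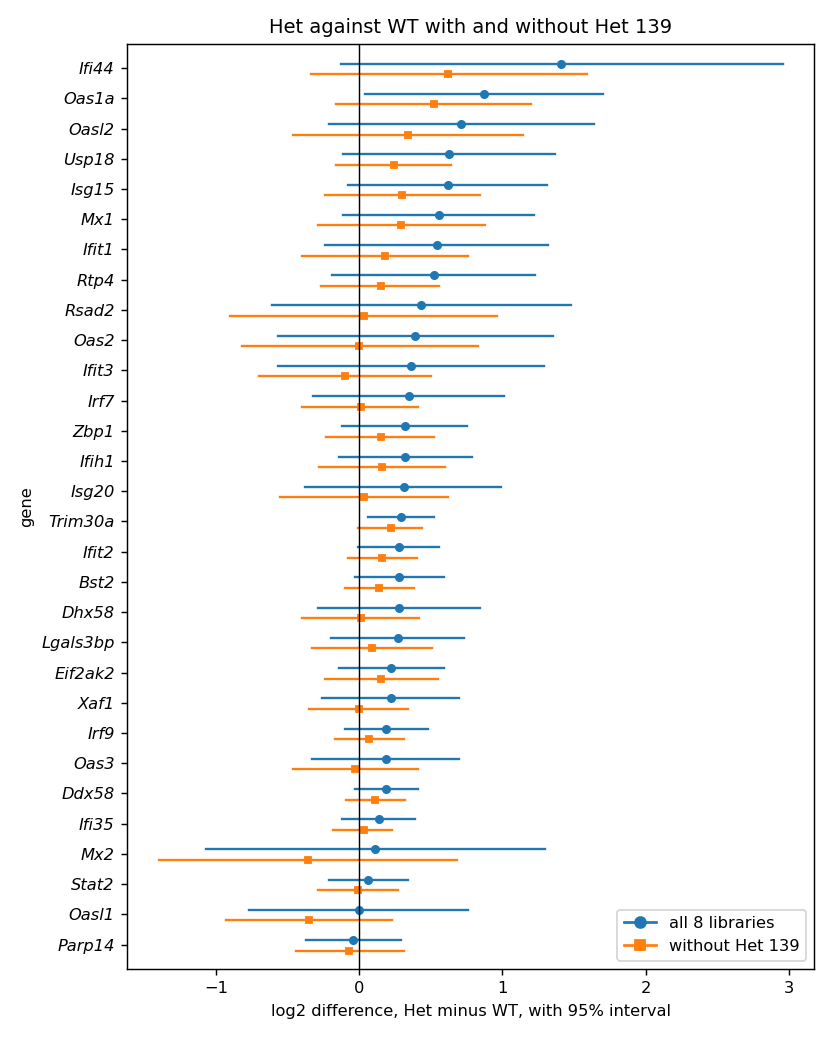
Log2 difference between Het and WT of each of the 30 genes with its 95% interval from limma, with all 8 libraries (blue circles) and without Het 139 (orange squares). With all libraries the interval excludes 0 in Oas1a and Trim30a, neither of which passed the adjusted threshold, and without Het 139 it includes 0 in each of the 30.

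Other genes of the pathway did not pass the test either. Of 19 interferon ligand genes, 15 were listed at 0 in every library, among them Ifnb1 and all the numbered Ifna genes. Ifng, the interferon of activated T and NK cells, was at 22.5, 20.1, 38.1 and 79.8 in WT 45, 54, 57 and 65, while it was at 134.4, 92.1, 30.1 and 70.7 in Het 31, 53, 56 and 139 (log2 difference 1.04, SE 0.53, limma adjusted p = 0.652). Het 139 was thus below WT 65 in Ifng. Among 5 tested receptor chains, Ifnar1 was at 4779.6 to 5484.8 in WT against 5103.6 to 6241.5 in Het libraries (log2 difference 0.21, SE 0.09, limma adjusted p = 0.590), and Ifnar2 at 2105.1 to 2572.3 and 2252.5 to 3115.7 (0.20, limma adjusted p = 0.660). Among kinases and STAT factors, Tyk2, which is bound to the receptor, was at 4324.8 to 5252.5 in WT against 4756.1 to 4977.5 in Het (limma adjusted p = 0.881).

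Of 7 other IRF factors, 4 had a log2 difference above 0. Irf1, the main factor downstream of interferon gamma, was at 12587.9 to 14398.6 in WT against 12081.4 to 16212.2 in Het libraries (log2 difference 0.09, SE 0.10), with the highest value in Het 31 rather than Het 139. Irf8 and Irf2, the IRF genes with the smallest p, had log2 differences of 0.46 and -0.20 (limma adjusted p = 0.730 and 0.781). Of 11 negative regulators 6 were above 0, with Ptpn6, the phosphatase SHP-1, at a log2 difference of -0.20 and Pias4 at -0.16 (limma adjusted p = 0.653 and 0.733). Of 11 sensing genes upstream of interferon 4 were above 0, with Mavs, the adaptor of the RNA helicases, at -0.14 and Tlr7 at 0.26 (limma adjusted p = 0.690 and 0.723).

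The GBP and IRG GTPases, which attack intracellular microbes, are induced by interferon gamma as well as by type I interferon. Their mean log2 level over 20 genes was 9.83, 9.41, 9.81 and 9.55 in WT 45, 54, 57 and 65, against 9.82, 9.86, 10.03 and 10.35 in Het 31, 53, 56 and 139. Of 18 tested, 18 had a log2 difference above 0 (median 0.19) against 52.0% of all tested genes, and 17 without Het 139 (median 0.12) against 52.2%, and none passed limma. At an unadjusted p under 0.05 limma gave 3, all higher in Het, against 3.79% of all tested genes. Het 139 was the highest library in 12 of the 18, against 16.5% of all tested genes, with a median log2 excess over the other 7 of 0.36 beside 1.05 in the 30 genes. The GTPase genes with the smallest p were Gm4951, at 4.1 to 11.8 in WT, 20.8 to 31.7 in Het 31, 53 and 56 and 322.1 in Het 139 (limma adjusted p = 0.394), and Igtp, at 5654.8 to 7549.6 in WT against 7371.8 to 8462.3 in Het libraries (limma adjusted p = 0.542). The difference between both groups of genes was not tested.

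Markers of the labelled cells were high in every library: the summed level of 10 naive CD8 T cell genes was 280790.2 to 308679.3 in WT against 291778 to 322050.4 in Het libraries, and the highest sum was in Het 139. In bulk RNA, fewer cells of a type and less RNA per cell cannot be told apart. Summed B cell markers (12 of 12 found) were at 4100 to 9801.4 in WT against 4440.7 to 21963.5 in Het libraries, with 6794.2 in Het 139, inside the WT range. NK cell markers (10 of 10) were at 8512.2 to 12581.7 in WT against 9494.7 to 19483.7 in Het, with 11807.1 in Het 139, also inside the WT range. Macrophage and monocyte markers (14 of 15) were at 2283.1 to 4736.8 in WT against 1945.5 to 7024.4 in Het, with 4984.2 in Het 139, and memory and effector CD8 genes (12 of 12) at 21220.6 to 23491.4 in WT against 19354.8 to 27559.2 in Het, the highest in Het 139. As sums, which weigh abundant genes most, the high levels of Het 139 in these last groups rested on single genes. These were Lyz2 (2035 against 578.2 to 1133.4 in WT) and Ly6c2 (8720.9 against 2553.5 to 3581.9 in WT). Without Lyz2 the myeloid sum of Het 139 was 2949.2, inside the WT range of 1704.9 to 3603.4. Without Ly6c2 its memory and effector sum was 18838.3, inside the WT range of 18064.8 to 20937.9. By mean log2 level, which weighs genes alike, Het 139 was above every WT library in both lists. It had 10.05 in the memory and effector genes (9.04 to 9.64 in WT, 10.16 in Het 31). In the macrophage and monocyte markers it had 7.32 (6.26 to 7.21 in WT, 7.94 in Het 31). Plasmacytoid dendritic cell markers (10 of 10), the cells that make most type I interferon, were at 14996.8 to 17482.8 in WT against 15040.5 to 17297.8 in Het, with 15040.5 in Het 139. Ccr9 and Pacsin1, which were abundant in every library, and Klk1, which was highest in Het 53 and 139 like the pancreatic genes described next, made up 72.6% to 90.3% of this sum. The other 7 markers summed to 1472.6 to 2932.5 in WT and 1952.7 in Het 139, where the defining gene Siglech was at 11.4 (5.8 to 17.1 in WT) and Cox6a2 at 0. The sums of conventional dendritic cell (8 of 8), plasma cell (7 of 9), CD4 T cell (6 of 6) and neutrophil markers (9 of 10) in Het 139 were 537, 7240.8, 3102.7 and 475.9, against 300.1 to 618.8, 3633.8 to 7153.3, 2751.5 to 4307 and 178.1 to 538.4 in WT. By mean log2 level, Het 139 was above every WT library in the conventional dendritic cell and neutrophil markers as well. It had 4.94 in the former (3.39 to 4.63 in WT, 5.82 in Het 31 and 5.11 in Het 53). In the neutrophil markers it had 4.91, the highest of the 8 libraries (3.56 to 4.76 in WT). In the plasma cell and CD4 T cell markers its mean log2 level was inside the WT range.

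Transcripts of exocrine pancreas, an organ that adjoins the spleen, separated the libraries in another way, which was seen only after the values had been examined. The sum of 25 such genes reached 70.4, 26387, 38946.7 and 119.7 for WT 45, 54, 57 and 65, and 376.7, 72509.2, 3104.2 and 73382.4 for Het 31, 53, 56 and 139. Prss1 was at 0 in all libraries but Het 139 and Amy2a5 in all 8. Het 53 thus had nearly the same pancreatic sum as Het 139, with a mean log2 level of the 30 genes of 10.19 against 11.22. WT 54 and 57 and Het 53 and 139 had a sum of at least 10000. Among these 4 libraries the log2 difference was above 0 in 30 of the 30 genes (median 0.44), against 51.6% of all tested genes. Among the other 4 it was above 0 in 26 (median 0.17), against 52.7% of all tested genes, and in neither set did a member pass limma. Het 139 is in the first set, so comparing the sets cannot tell a high pancreatic sum from the presence of this library. Nerve and glia markers, also listed after the values had been seen, were called lower in Het for 7 of 12 (0.515% of all tested genes). Their median log2 difference was -5.45, and 5 were at 0 in Het 139. Mbp, at 9329.1 to 10942.5 in all libraries, had a log2 difference of 0.00, and the other 11 summed to 1699.8 to 5228 in WT against 160 to 492.4 in Het. The part of these transcripts in the interferon-stimulated genes was not tested. Xist was at 12056.2 or more in every library, while WT 45 and 54 stood apart in 4 Y-linked genes at low levels. Ddx3y was at 15.7 and 49.7 in these, against 2.1 or less in the other libraries. Uty was at 13.5 and 14.8 (1.9 or less elsewhere), Kdm5d at 10 and 3.2 (0 elsewhere) and Eif2s3y at 5.1 and 4.9 (1.9 or less elsewhere). The log2 difference was above 0 in 30 of the 30 genes without WT 45 (52.5% of all tested genes) and in 27 without WT 54 (52.4%). It was likewise above 0 in 30 without Het 31 and in 29 without WT 57.

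**Figure D5:**
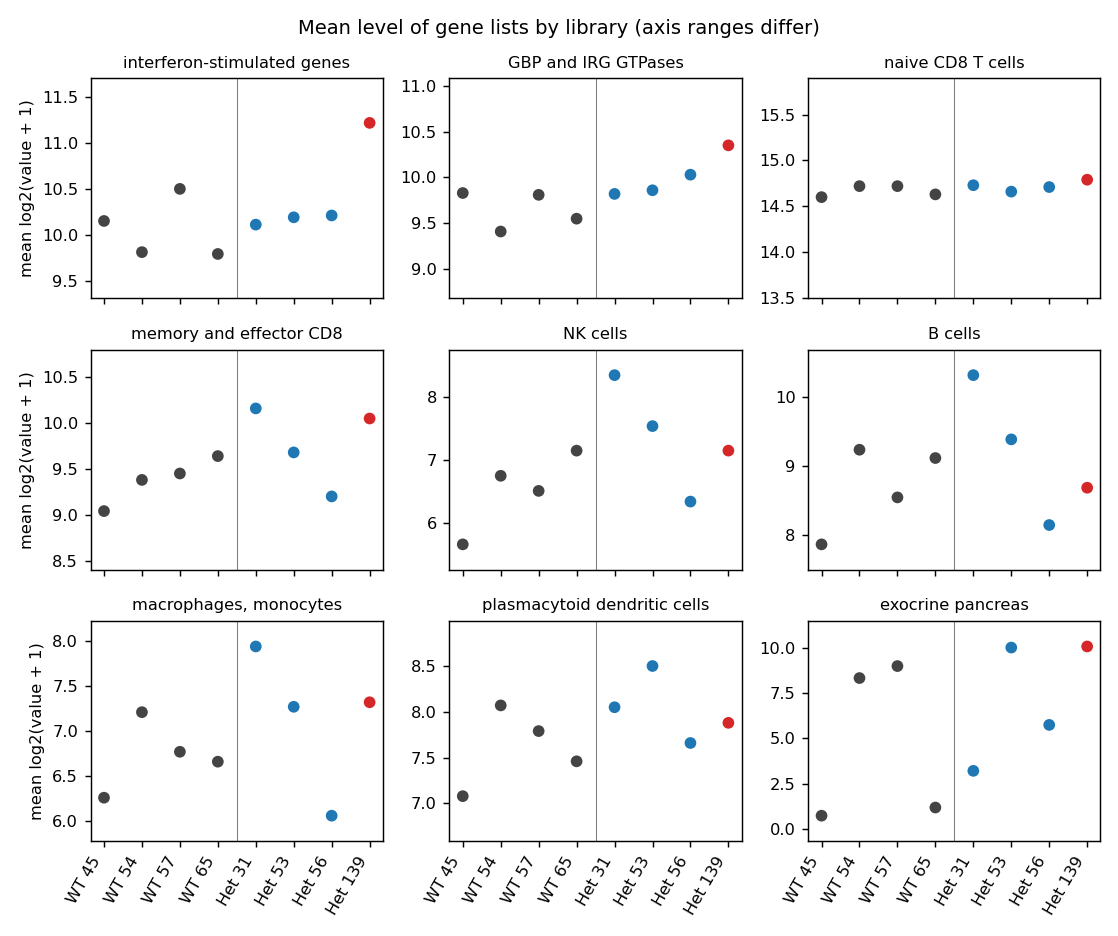
Mean log2(value + 1) of 9 gene lists in each WT library (grey) and Het library (blue, Het 139 red), with axis ranges that differ between panels. Het 139 stands apart in the interferon-stimulated genes, is near the WT libraries in the B cell and NK cell lists, and shares its high pancreatic level with Het 53. In the memory and effector CD8 list and the macrophage and monocyte list, Het 139 is above every WT library and below Het 31.

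The deposited values share 1 distribution, so depth shows only in low values. The lowest value above 0 was 0.2 to 0.3 in WT against 0.9 to 1.9 in Het libraries, and the genes above 0 numbered 15358 to 15569 in WT against 13863 to 14656 in Het. Het 139 was at the end of both ranges, with the fewest genes above 0, 13863, and a lowest value of 1.9, shared with Het 56. Of the 30 genes only Mx2 and Ifi44 had a mean under 100 in WT, and the depth behind these values is not known. Brca1 was at 148.6 to 208.1 in WT against 126.7 to 174.5 in Het libraries and gives no check of the genotype labels, since a value per gene does not show which allele was read.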

How the data were processed

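RNA sequencing of 8 libraries was analysed from 1 deposited table of normalized read counts per gene, a signal on a linear scale with 1 decimal. CASAVA, TopHat2, HTSeq, DESeq and build mm9 are named per the submitters' processing notes, without versions or roles. Libraries were made from total RNA with the TruSeq stranded mRNA kit, per the labels' protocols. How reads were normalized, and with which strand setting they were counted, is not given in the sources used here. Sorted by size, the deposited signal values of all libraries coincide: for 9513 ranks averaging 100 or more, 100% of ranks had every library within 2% of the rank mean. Differences in total RNA are therefore hidden, and whole reads were not recovered, so no count model was used.

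Genes with a mean of at least 10 (12048) were tested 2-sided on log2(value + 1) by limma 3.58.1 (R 4.3.3), letting the variance follow the mean level, and p-values were adjusted by Benjamini-Hochberg over every tested gene with a threshold of 0.05. The log2(value + 1) scale understates changes of low genes. Alternatives were pseudocounts of 0.5 and 5, filters (any value above 0, a mean of at least 50), median-of-ratios factors, quantile normalization of log2 values, no trend, a robust fit, array weights and leaving out each library. The split by pancreatic transcripts was added after the data were seen. The members and lists were chosen with earlier results of these data known, so lists are described by counts and medians without a test. All 30 members are named, with values in every library for the 3 transcription factors and for the 3 members of each other role group with the largest log2 difference, and for Parp14, chosen after its values were seen. Of each pathway list the genes named are Ifnar1, Ifnar2, Irf1 and the 2 tested genes with the smallest p, apart from 1 gene that is not reported here, and other markers were chosen after their values were seen. The 2 genotypes share no library number. By GENCODE M21 exons, Ifi35 (16.8% of its exon bases) and Rtp4 (13.9%) overlap another gene most, so their values may hold its reads.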

Additional observations from a re-analysis of the deposited data

Results flagged for a closer look

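A library was noted when its gap to the nearest library of its genotype was nearly the whole range of the 4 values. Chance gives this in about 1 of 20 groups of normally distributed values. The gene values were not on a log scale, so this rate may not hold for them, and the share over all tested genes was not counted. Of 92 groups of 4, 13 (14.1%) were noted. Of the 60 groups of the 30 interferon-stimulated genes, 9 were noted, and 8 of the 9 were in Het 139: Irf7 at 10686 (other Het libraries 3568.5 to 4596.9), Usp18 at 3330.2 (975.2 to 1248.7), Ifit1 at 2945.1 (1049.6 to 1141.5), Ifit3 at 2600.6 (712.2 to 724.5), Dhx58 at 1761.9 (807.3 to 862.7), Isg20 at 1108.2 (462.9 to 555.7), Rtp4 at 3475.9 (1084.1 to 1451.9) and Ifi44 at 749.6 (64.9 to 109.6). The remaining one was Isg15 in WT 57, at 640 (other WT libraries 353.4 to 393.5).

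The mean log2 level of the 30 genes in Het 139, 11.22, was noted as well (other Het libraries 10.11 to 10.21). Among other genes, Gm4951 was at 322.1 in Het 139 (20.8 to 31.7), Ifnar1 at 5484.8 in WT 65 (4779.6 to 4859.7), and Igtp at 7371.8 in Het 53 (8322.8 to 8462.3).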

How the results depend on the processing

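No paired analysis was possible because the genotypes share no library number. The 30 members gave 570 log2 differences under the alternatives, of which 18, in 8 members, changed sign and none passed limma (lowest adjusted p 0.218). With all 8 libraries the only change of sign was Stat2 with array weights (-0.02). Leaving out each library in turn gave ranges of -0.10 to 0.63 for Ifit3, -0.36 to 0.54 for Mx2, -0.03 to 0.36 for Oas3, -0.35 to 0.31 for Oasl1, -0.14 to 0.09 for Parp14, -0.01 to 0.14 for Stat2 and -0.00 to 0.36 for Xaf1. The count of members above 0 was 23 to 30 and their median 0.10 to 0.43, both lowest without Het 139, and the median was 0.16 with array weights. The count of members whose genotypes did not overlap, 2 (2.13% of all tested genes), was 2 to 7, with 7 without WT 57 (3.34%), and 0 with median-of-ratios factors (1.77%). Genes called numbered 62, 123 with any value above 0, 14 with a mean of at least 50, and 11 to 91 when 1 library was left out, with 16, 11 and 16 without WT 54, 57 and 65 and 27, 21 and 30 without Het 31, 53 and 139. In the libraries with a pancreas sum under 10000 limma called 0 genes, and Oas2 (-0.16), Mx2 (-0.77), Tyk2 (-0.03), Irf2 (0.03) and Tlr7 (-0.02) changed sign. In those with a sum of at least 10000 it called 21, and Oasl1 (0.38) and Parp14 (0.09) changed sign. These sets have 2 libraries a genotype, and the cause of these changes, like that of the changed counts of calls, was not tested.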

Other observations

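Genes outside the 30 were also high in Het 139 and were chosen here after their values had been seen. Ranked by the log2 excess of Het 139 over the median of the other libraries, among 10225 genes with a mean of at least 50, the 50 highest held 23 pancreatic genes and 7 of the 30 interferon-stimulated genes. The 200 highest held 18 of the 30. Among the others, Ifi27l2a, a mitochondrial protein induced by interferon, was at 2225.5 to 2832.2 in WT, at 2411.2 to 4109.4 in Het 31, 53 and 56, and at 8443.9 in Het 139. Ly6a, the surface antigen Sca-1, which interferon induces in T cells, was at 864.7 to 1266.1 in WT, 1234.1 to 1920.2 in the other Het libraries and 4411.7 in Het 139. Ly6c2, a surface protein of memory T cells and monocytes, was at 2553.5 to 3581.9 in WT, 1747.4 to 2800.7 in the other Het libraries and 8720.9 in Het 139. Klrg1, a receptor of effector T cells and NK cells, was at 151.3 in Het 139 but at 167.6 in Het 31, and Lyz2, the lysozyme of myeloid cells, at 2035 and 2010 in these libraries. Also among the 50 highest were Tpt1 and Plvap, which belong to none of the lists used here. Tpt1 was at 2074.9 to 6450.2 in WT, 1988.2 to 5109.9 in the other Het libraries and 12391.6 in Het 139.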
